A study of Homo sapiens with 12 samples.

Results

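Mitochondrial ribosomal proteins are the nucleus-encoded proteins of the ribosome that works inside mitochondria. Members were all genes whose symbol starts with MRPL or MRPS followed by a digit, and each gene was read from its brightest probe set with a single gene symbol. The rule found 74 members among 18417 genes, 48 with large subunit symbols (MRPL) and 26 with small subunit symbols (MRPS). Of these, 73 code for protein, and MRPS31P5 is a pseudogene of MRPS31. RefSeq holds 77 protein-coding genes with such symbols. The remaining 4, MRPL51, MRPS6, MRPS24 and MRPS28, lay on probe sets that also carry the symbol of another gene, and they were not analysed here.

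Levels were measured on 12 arrays of total RNA from Calu-3 cells, a long-established line of human airway epithelium derived from a lung adenocarcinoma. All cells were transfected with an oligonucleotide by a lipid reagent. The control group received NC1, which the labels also call a Scr control (n = 6, numbered 1 to 6), 1 group received a small interfering RNA against SIN3A (n = 3) and 1 group a mimic of miR-138 (n = 3). No group was left untransfected among these arrays, and neither dose nor time is given in the sources used here. The cell line field gives Calu-3, but the RNA extraction text mentions primary cultures. The labels call the arrays biological replicates without saying whether they came from separate cultures, so p-values measure the spread between arrays, which may be technical.

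Mitochondria keep a small genome that codes for core subunits of the respiratory chain, and these are made on a dedicated ribosome. Its 2 ribosomal RNAs come from mitochondrial DNA, while its proteins are made in the cytosol from nuclear genes and imported. The large subunit forms peptide bonds and holds the exit tunnel, and the small subunit reads the messenger RNA. Some of the proteins have counterparts in bacterial ribosomes and others exist only in mitochondria. SIN3A is the scaffold of histone deacetylase complexes that act mostly as corepressors of transcription. A microRNA pairs with messenger RNAs through its seed, and SIN3A is a reported target of miR-138.

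The mature strand that the mimic is named for is shown because its seed (bases 2 to 8, in capitals) defines what it can pair with. RefSeq gives the same 23 bases for both loci of the gene, on chromosome 3 and chromosome 16 of GRCh38.p14.
hsa-miR-138-5p: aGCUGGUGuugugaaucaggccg

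The 100 bases before the RefSeq start of 6 members follow, all on GRCh38.p14 and read 5′ to 3′ on the strand of the gene. They are the members called in the comparison of either treatment with all 6 NC1 arrays. Capitals mark matches, on either strand, to 1 of 6 motifs known from promoters of housekeeping and mitochondrial genes. The motifs were CCGGAAG (ETS factors), AAGATGGC (YY1), GCATGCGC (NRF1), CCAAT (NFY), GGGCGG (SP1) and CACGTG (E-box). MRPL41 lies at chr9:137551779-137551878 on the plus strand and holds NFY and SP1 matches. MRPL32 lies at chr7:42932276-42932375 on the plus strand, with NRF1 and SP1 matches. MRPL46 lies at chr15:88467389-88467488 on the minus strand and holds none of the motifs in these letters. MRPS22 lies at chr3:139343894-139343993 on the plus strand, where a pair of ETS matches face each other, and it is the outermost of 3 starts in the table. MRPS14 lies at chr1:175023426-175023525 and MRPS23 at chr17:57850045-57850144, both on the minus strand, with SP1 and ETS matches respectively.
MRPL41: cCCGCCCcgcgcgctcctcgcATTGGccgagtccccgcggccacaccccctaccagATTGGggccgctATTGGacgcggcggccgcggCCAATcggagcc
MRPL32: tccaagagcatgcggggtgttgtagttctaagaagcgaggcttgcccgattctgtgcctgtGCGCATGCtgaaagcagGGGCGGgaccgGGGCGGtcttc
MRPL46: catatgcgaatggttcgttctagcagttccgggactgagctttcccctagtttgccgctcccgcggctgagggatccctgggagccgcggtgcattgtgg
MRPS22: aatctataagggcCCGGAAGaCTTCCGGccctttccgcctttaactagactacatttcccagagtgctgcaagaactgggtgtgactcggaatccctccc
MRPS14: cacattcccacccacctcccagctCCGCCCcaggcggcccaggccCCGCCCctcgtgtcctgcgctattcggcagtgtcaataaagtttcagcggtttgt
MRPS23: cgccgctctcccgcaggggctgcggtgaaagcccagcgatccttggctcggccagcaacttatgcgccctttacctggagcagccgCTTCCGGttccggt

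Promoter windows from 250 bases before to 50 bases after a start were found for 66 of the 73 protein-coding members and for 15843 protein-coding genes in all, members included. The ETS motif was in 29 of 66 members (43.9%), against 16.5% of all coding genes. The YY1 motif was in 19 members (28.8%), against 4.66%. For the ETS motif this was 17 of 41 large and 12 of 25 small subunit members, so both subunits carried it. The NRF1 motif was in 6 members (9.09% against 4.89%), and the E-box in 9 (13.6% against 10.9%). NFY and SP1 motifs were in 34.8% and 59.1% of members, against 42.1% and 64.3% of coding genes. A match is a stretch of letters and not a measured binding site.

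**Figure D1:**
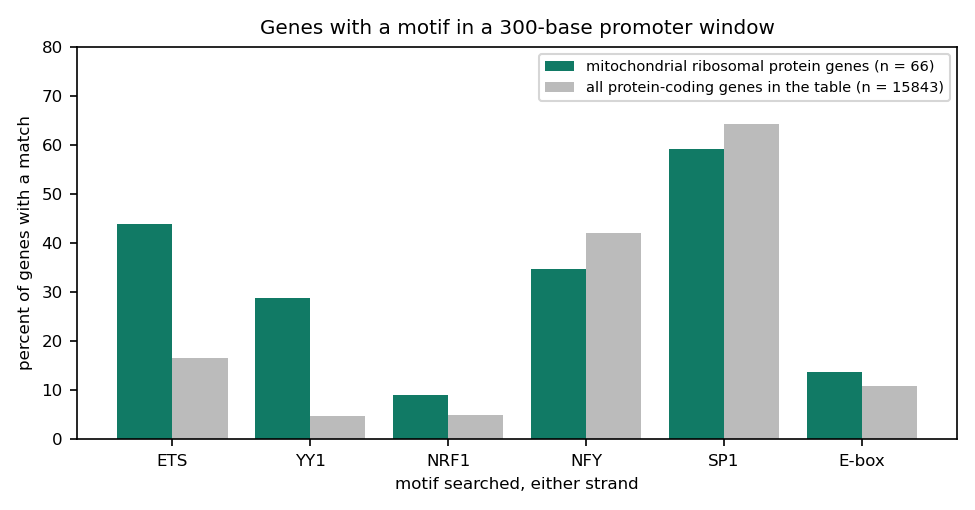
Percent of genes (vertical axis) with a match to each of 6 motifs (horizontal axis) in a 300-base promoter window, for 66 mitochondrial ribosomal protein genes (green bars) and 15843 protein-coding genes (grey bars). The ETS and YY1 bars of the members, 43.9% and 28.8%, stand above the grey bars of 16.5% and 4.66%.

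The targeted gene was lower in every treated array. SIN3A was at 6.79, 6.71, 6.36, 7.34, 7.16 and 7.11 (log2 level) in NC1 1 to 6, at 6.17, 5.88 and 6.03 with the siRNA, and at 5.93, 6.05 and 6.25 with the mimic. The log2 differences from NC1 were -0.88 (SE 0.17, adjusted p = 0.0111) and -0.83 (SE 0.17, adjusted p = 0.0304). Of 9 airway epithelial markers, all were above the median level of all genes (5.29), as were 2 of 6 fibroblast, 1 of 5 leukocyte and 0 of 5 endothelial markers. CFTR, a chloride channel among the airway markers, fell with the siRNA (log2 difference -1.34, adjusted p = 0.000203). With the mimic CFTR was at -0.39 and did not pass (limma, adjusted p = 0.244). It passed with the mimic only against NC1 4 to 6 (log2 difference -0.57, adjusted p = 0.0188). Array medians lay between 5.09 and 5.16. The NC1 arrays 1 to 3 and 4 to 6 differed from each other in 1850 of all 18417 genes (10%, limma, adjusted p under 0.05), SIN3A included (0.58 higher in NC1 4 to 6, SE 0.12, adjusted p = 0.00574). The members' comparisons with NC1 are therefore also given against each part. On these bulk arrays, fewer cells with a transcript and less transcript per cell cannot be told apart.

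The mean log2 level was at or above the median of all genes for 71 of 74 members, and below it for MRPL49, MRPS12 and MRPS31P5. The median SD of a member over the 6 NC1 arrays was 0.17 on the log2 scale (0.16 for all genes). It was 0.14 within NC1 1 to 3, 0.10 within NC1 4 to 6, 0.09 within the siRNA arrays and 0.08 within the mimic arrays.

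With SIN3A siRNA, 5 members rose and none fell against all 6 NC1 arrays (limma, adjusted p under 0.05). They were MRPL41, MRPL32 and MRPL46 of the large subunit and MRPS22 and MRPS14 of the small subunit, by 1.24-fold to 1.47-fold. The 5 are 6.76% of members, where 4.01% of all genes were called in either direction, 2.35% higher and 1.66% lower. Most members are bright, and among the 9209 genes at or above the median level 6.78% were called, so the members' share was at that background. The count was 12 (11 higher, 1 lower) with genes below the median level left out of the fit, and 2 with only the siRNA and NC1 arrays fitted. At an unadjusted p under 0.05, 22 members were higher and 3 lower (29.7% and 4.05%), against 9.04% and 7.34% of all genes and 14.7% and 8.78% of the brighter genes. The log2 difference was above 0 for 58 of 74 members (78.4%), against 48.4% of all genes and 54.1% of the brighter genes. Its median was 0.14 over members, against -0.01 over all genes and 0.02 over the brighter genes.

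For 15 members, every siRNA array was higher than every NC1 array (20.3%, against 5.49% of all genes and 9.45% of genes at or above the median level). The siRNA arrays lay below all NC1 arrays for 2 of 74 members, MRPL35 and MRPS10. The same held for 3.53% of all genes and for 399 of the 9209 brighter genes. The 10 members of the 15 that were not called were MRPL2, MRPL14, MRPL16, MRPL18, MRPL22, MRPL28, MRPL47, MRPS15, MRPS21 and MRPS23, with log2 differences of 0.25 to 0.44. The median deviation of the 74 members from their NC1 mean was 0.12, 0.15 and 0.16 in the siRNA arrays. In NC1 1 to 6 it was 0.08, 0.04, -0.06, 0.02, 0.03 and -0.02, so each siRNA array lay above each NC1 array.

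**Figure D2:**
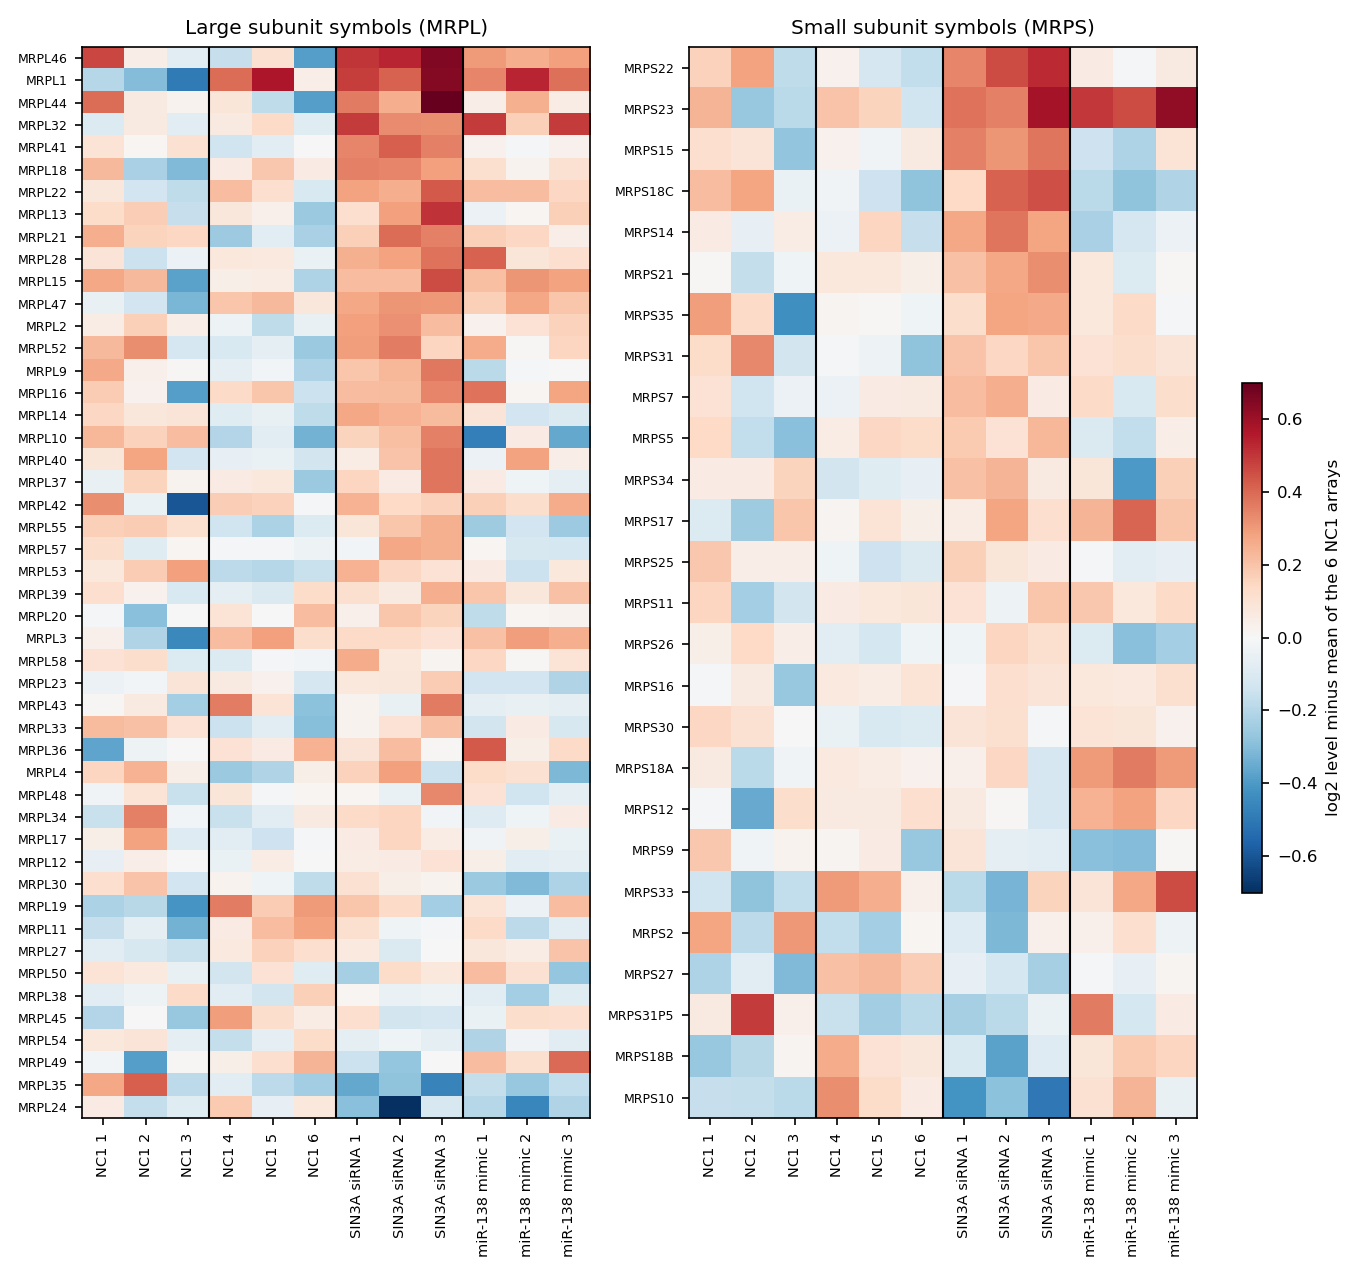
Log2 level of each member minus its mean over the 6 NC1 arrays (colour, cut at -0.7 and 0.7), with members in rows sorted by the difference between SIN3A siRNA and NC1, and arrays in columns. The 3 siRNA columns are red for most members, with median deviations of 0.12, 0.15 and 0.16.

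In the large subunit, 40 of 48 members were above 0 in the siRNA comparison, with a median log2 difference of 0.15. MRPL41, a protein found only in mitochondrial ribosomes, had log2 levels of 7.23, 7.15, 7.24, 6.99, 7.06 and 7.14 in NC1 1 to 6. It had 7.47, 7.55 and 7.49 with the siRNA. The groups did not overlap, and the mean rose by 0.37 (SE 0.07, adjusted p = 0.0135). With the mimic MRPL41 stood at 7.17, 7.13 and 7.17, inside the NC1 range.

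MRPL32 has a bacterial counterpart and is cut by the m-AAA protease after import, a step needed for its assembly into the ribosome. Its log2 levels were 5.47, 5.63, 5.49, 5.63, 5.70 and 5.48 in NC1 1 to 6 and 6.06, 5.90 and 5.89 with the siRNA. All siRNA arrays were above all NC1 arrays, and the difference was 0.38 (SE 0.09, adjusted p = 0.0319). The mimic arrays, at 6.06, 5.73 and 6.06, were also above all NC1 arrays, with a difference of 0.38 that missed the threshold (adjusted p = 0.0652).

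MRPL46, a mitochondria-specific protein, had log2 levels of 7.04, 6.62, 6.49, 6.41, 6.68 and 6.19 in NC1 1 to 6. The siRNA arrays were at 7.07, 7.10 and 7.22, above all of these but close to NC1 1. The rise was 0.56 (SE 0.14, adjusted p = 0.0319), and the mimic arrays lay at 6.87, 6.83 and 6.86, inside the NC1 range. The start of MRPL46 lies 320 bases from that of MRPS11, on the opposite strand, the only pair of neighbouring starts among the matched members within 1000 bases. MRPS11, a small subunit protein with a bacterial counterpart, differed by 0.09 with the siRNA (SE 0.09, adjusted p = 0.739).

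The other large subunit members with the largest differences did not pass. MRPL1, a protein of the stalk where spent transfer RNA leaves, differed by 0.51 (SE 0.19, adjusted p = 0.164). Its NC1 arrays were at 6.04, 5.93, 5.74, 6.63, 6.80 and 6.28, and its siRNA arrays at 6.72, 6.65 and 6.88. The siRNA arrays were thus above NC1 1 to 3 but within the range of NC1 4 to 6. MRPL44, which has a fold like that of RNase III, differed by 0.44 (SE 0.14, adjusted p = 0.11). MRPL24 and MRPL35 had the lowest values, -0.39 (SE 0.13, adjusted p = 0.109) and -0.37 (SE 0.13, adjusted p = 0.161).

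In the small subunit, 18 of 26 members were above 0 with the siRNA, with a median log2 difference of 0.09. MRPS22, a mitochondria-specific protein in which inherited defects cause combined respiratory chain deficiency, had log2 levels of 6.97, 7.09, 6.63, 6.83, 6.69 and 6.64 in NC1 1 to 6. It had 7.15, 7.27 and 7.33 with the siRNA, without overlap. The rise was 0.44 (SE 0.10, adjusted p = 0.0273). With the mimic it was at 6.87, 6.80 and 6.87, a difference of 0.04.

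MRPS14, a conserved protein of the small subunit head, had log2 levels of 5.80, 5.69, 5.80, 5.71, 5.90 and 5.59 in NC1 1 to 6. With the siRNA it was at 6.02, 6.12 and 6.03, above all NC1 arrays, a rise of 0.31 (SE 0.08, adjusted p = 0.0485). The mimic arrays, at 5.52, 5.63 and 5.71, overlapped NC1. MRPS15, which has a bacterial counterpart, differed by 0.35 (SE 0.10, adjusted p = 0.0594). Its siRNA arrays, at 8.15, 8.10 and 8.17, were all above its NC1 arrays, which ranged from 7.52 to 7.92.

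MRPS10, another conserved head protein, had the lowest value of all members. Its log2 levels were 8.03, 8.03, 8.01, 8.52, 8.32 and 8.25 in NC1 1 to 6 and 7.78, 7.91 and 7.69 with the siRNA. The groups did not overlap, but the difference of -0.40 (SE 0.12) had an adjusted p of 0.0699. The pseudogene MRPS31P5 was at -0.16 (SE 0.14, adjusted p = 0.677).

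**Figure D3:**
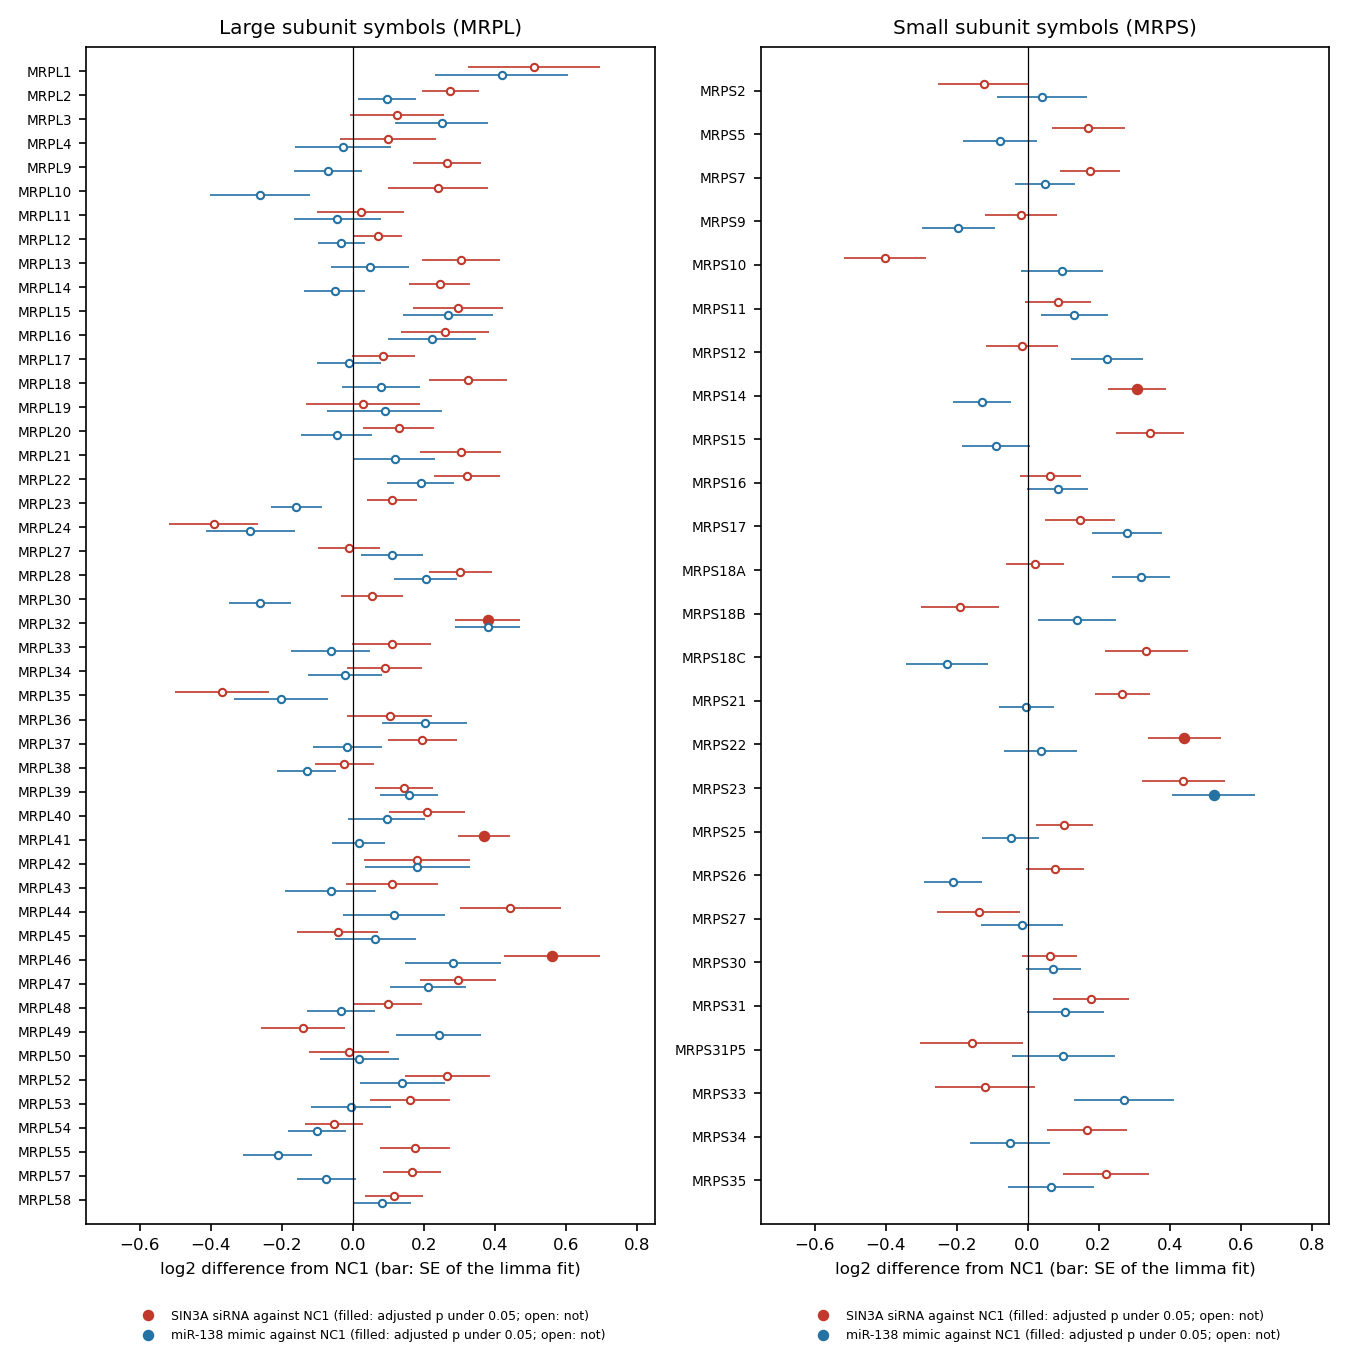
Log2 difference from the 6 NC1 arrays (horizontal axis, bars are the standard error of the limma fit) for each member (vertical axis), with SIN3A siRNA in red and miR-138 mimic in blue, large subunit left and small subunit right. Filled points passed the threshold, 5 for the siRNA and 1 for the mimic, and the red points lie right of 0 for 58 of 74 members.

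All 5 siRNA calls were lost when any 1 of the siRNA arrays was left out, which gave counts of 0. The count was 2 without NC1 6 and 3 without mimic 2, which enters only the shared variance. The median over members kept its sign throughout and lay between 0.13 and 0.15 over these fits.

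Members with a bacterial counterpart and members found only in mitochondria, a grouping made after the data were seen, had like medians in the siRNA comparison. The median log2 difference was 0.14 over 42 members with a counterpart, 35 of them above 0. It was 0.14 over 31 mitochondria-specific members, 23 of them above 0. Of the called members, MRPL32 and MRPS14 belong to the first kind and MRPL41, MRPL46 and MRPS22 to the second.

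The siRNA differences of matched members were also set beside the promoter motifs. The median log2 difference was 0.12 with and 0.14 without the ETS motif, and 0.06 with and 0.15 without the YY1 motif. For the 6 members with the NRF1 motif it was 0.29, against 0.12 for the other 60. These are descriptions of groups of unequal size, with no test.

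With the miR-138 mimic, 1 member rose against all 6 NC1 arrays and none fell. This 1.35% of members compares with 1.04% of all genes and 1.87% of genes at or above the median level called in either direction, so the share was near the background. MRPS23, a mitochondria-specific protein of the small subunit, had log2 levels of 6.11, 5.60, 5.68, 6.07, 6.02 and 5.73 in NC1 1 to 6 and 6.36, 6.33 and 6.49 with the mimic. The groups did not overlap, and the rise was 0.52 (SE 0.12, adjusted p = 0.0475), 1.44-fold. The siRNA arrays, at 6.25, 6.22 and 6.45, were also all above NC1, with a difference of 0.44 (SE 0.12, adjusted p = 0.0508). The mimic call was lost in 9 of the 12 fits that leave out 1 array, with counts of 0 without NC1 2, NC1 3 or NC1 6 and without any single siRNA or mimic array.

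The mimic differences were above 0 for 42 of 74 members. Their median was 0.05, against -0.01 over all genes, and -0.002 after a second quantile normalization, so no direction of the family is given for the mimic. By subunit the median was 0.03 over the 48 large and 0.06 over the 26 small members. With MRPS18A and MRPS30 counted in the large subunit, where their proteins lie, it was 0.056 over 50 large and 0.045 over 24 small members. Among members that did not pass, MRPL1 was at 0.42, MRPL24 at -0.29, MRPL46 at 0.28 and MRPL15 at 0.27 in the large subunit. In the small subunit MRPS18A was at 0.32, MRPS17 at 0.28, MRPS33 at 0.27 and MRPS18C at -0.23. Of these, the mimic arrays lay beyond all NC1 arrays for MRPS18A (above) and MRPL24 (below).

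**Figure D4:**
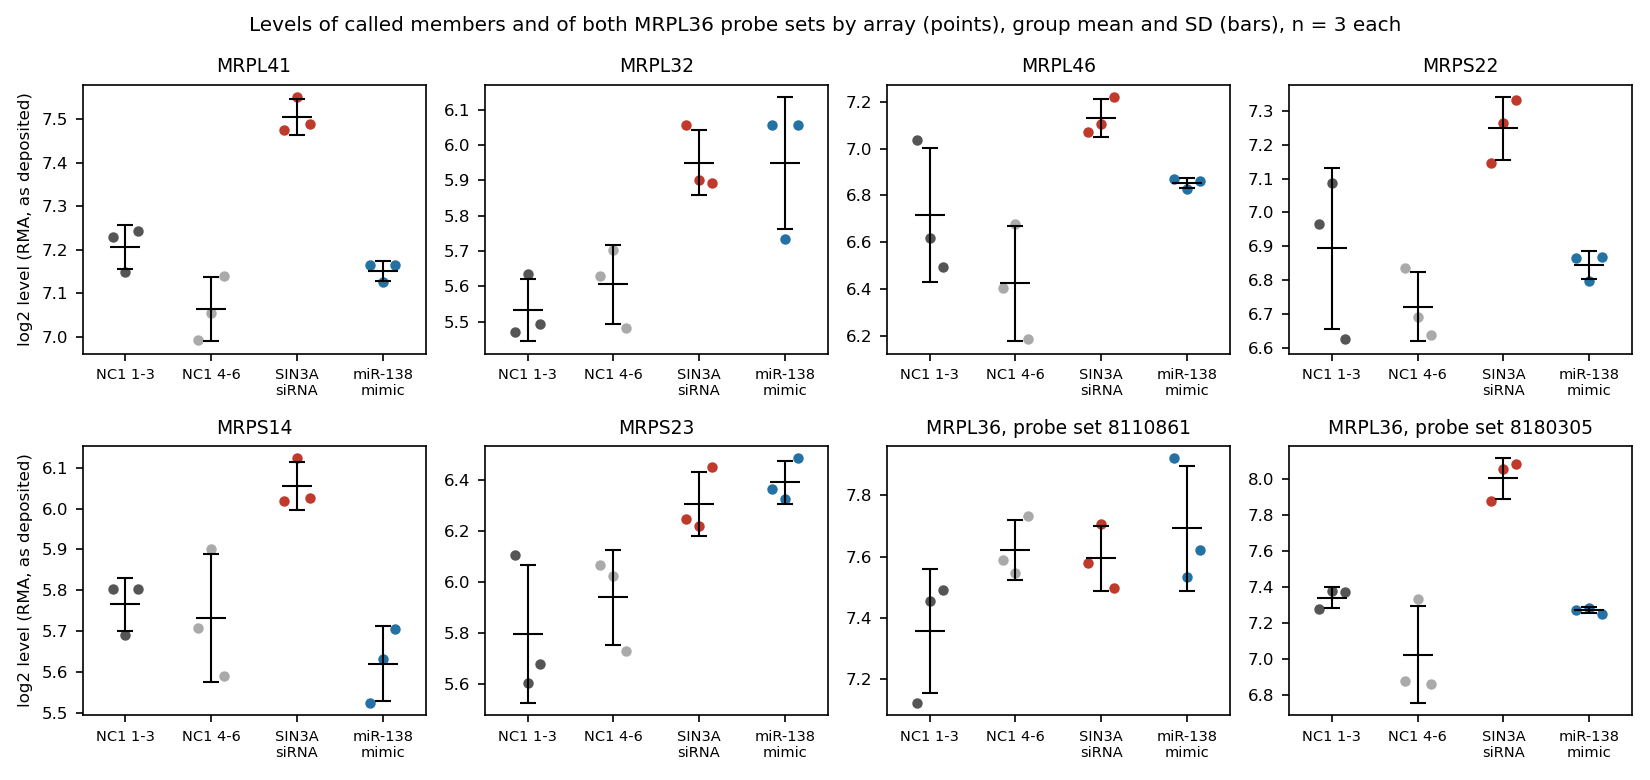
Log2 level by array (points; vertical axes differ and do not start at 0) with group mean and SD (bars, n = 3) for the 6 members called in a comparison with NC1 and for both probe sets of MRPL36. MRPL41, MRPL46, MRPS22 and MRPS14 stand above all NC1 arrays with the siRNA but overlap them with the mimic, while MRPL32 and MRPS23 stand above all NC1 arrays with both treatments.

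Set directly against the siRNA, the mimic gave a lower level of 1 member (1.35%, against 1.57% of all genes called and 2.81% of the brighter genes), MRPS14, and a higher level of none. MRPS14 was lower by 0.44 on the log2 scale (log2 difference -0.44, SE 0.09, adjusted p = 0.0326), and the 2 groups did not overlap. The call was lost without any single array of either treatment, with counts of 0. Without NC1 1, 2, 3, 4 or 6, which enter only through the shared variance, 2 to 4 members were called. The median log2 difference was -0.11 over large and -0.03 over small subunit members, against -0.007 over all genes. In the large subunit 37 of 48 members were lower with the mimic, and in the small subunit 13 of 26, against 9599 of all 18417 genes. With MRPS18A and MRPS30 counted in the large subunit, where their proteins lie, the medians were -0.11 over 50 large and -0.10 over 24 small members. That grouping was made after seeing the data. MRPS18C (-0.56, adjusted p = 0.0521), MRPL41 (-0.35, adjusted p = 0.0548) and MRPS15 (-0.43, adjusted p = 0.0652) fell short of the threshold, as did MRPS10 in the other direction (0.50, adjusted p = 0.0776). MRPL32 had the same mean with both treatments, 5.95.

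The 3 MRPS18 paralogs descend from 1 bacterial protein and occupy different places in the ribosome. MRPS18C is taken as the counterpart in the small subunit, MRPS18B as a further small subunit protein, and MRPS18A lies in the large subunit despite its symbol, as does MRPS30. The log2 differences with the siRNA were 0.02 for MRPS18A, -0.19 for MRPS18B and 0.33 for MRPS18C. With the mimic they were 0.32, 0.14 and -0.23, so MRPS18C was higher with the siRNA than with the mimic, and the other two were lower. None of these 6 values passed, and the difference between paralogs was not tested. With MRPS18A and MRPS30 counted in the large subunit, a choice made after seeing the data, the siRNA medians were 0.14 over 50 large and 0.13 over 24 small members.

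Against NC1 1 to 3 alone, 8 members rose and 1 fell with the siRNA (12.2%, against 5.70% of all genes called, 3.66% higher and 2.04% lower, and 9.45% of genes at or above the median level). Against NC1 4 to 6 alone, 15 rose and 4 fell (25.7%, against 11.4%, 5.16% higher and 6.28% lower, and 18.9% of the brighter genes). MRPL32 and MRPL41 passed against both parts, 7 members passed only against NC1 1 to 3 and 17 only against NC1 4 to 6. Members called against both parts were thus 7.69% of those called against either, where the same share was 18.7% over all genes, and the difference was not tested. MRPL32 rose by 0.42 and 0.34 (adjusted p = 0.0279 and 0.043), and MRPL41 by 0.30 and 0.44 (adjusted p = 0.0399 and 0.00155). MRPL46 was 0.41 above NC1 1 to 3 (adjusted p = 0.088) and rose by 0.71 against NC1 4 to 6 (adjusted p = 0.00217). MRPS22 was at 0.35 and 0.53 and MRPS14 at 0.29 and 0.32, and both passed only against NC1 4 to 6.

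The family median was above 0 against either part. With the siRNA the value against NC1 1 to 3 was 0.13 and that against NC1 4 to 6 was 0.16, with 57 and 56 of 74 members above 0. The same median over all genes was -0.01 and 0.005. Of the 74 members, 46 were above both parts, 7 below both and 21 between them. MRPL1, MRPL10, MRPL21, MRPL47, MRPL53, MRPL55, MRPS10 and MRPS27 passed against 1 part but not the other, and they also differed between the control parts. MRPL1 rose by 0.85 against NC1 1 to 3 (adjusted p = 0.000918) but differed by 0.18 from NC1 4 to 6. MRPL21 rose by 0.49 against NC1 4 to 6 (adjusted p = 0.00175) but differed by 0.12 from NC1 1 to 3. MRPS10 fell by 0.57 against NC1 4 to 6 (log2 difference -0.57, adjusted p = 0.00114) and differed by -0.23 from NC1 1 to 3.

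The counts against the parts moved with single arrays. Against NC1 1 to 3 the siRNA count of 9 was 2 to 4 without NC1 2, NC1 3 or any 1 siRNA array, and 14 without NC1 1. Against NC1 4 to 6 the count of 19 was 10 to 12 without siRNA 2 or 3 or any 1 of NC1 4 to 6.

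With the mimic, 7 members rose and 3 fell against NC1 1 to 3 (13.5%, against 8.55% of all genes, 6.01% higher and 2.54% lower, and 14.2% of genes at or above the median level, so the share was near that of the brighter genes). No member passed against NC1 4 to 6 (limma), where 3.49% of all genes did, and 9 members were higher and 3 lower at an unadjusted p under 0.05 (12.2% and 4.05%, against 6.0% and 6.27% of all genes and 9.31% and 9.46% of the brighter genes). The 7 that rose against NC1 1 to 3 were MRPL1, MRPL3, MRPL32, MRPL47, MRPS18A, MRPS23 and MRPS33, and the 3 that fell were MRPL10, MRPL55 and MRPS18C. The differences from NC1 4 to 6 of these 10 were 0.45 for MRPS23, 0.34 for MRPL32, 0.27 for MRPS18A and between -0.08 and 0.08 for the other 7. The count of 10 was 4 to 6 without NC1 2 or without any 1 mimic array. The count of 0 against NC1 4 to 6 was 2 without NC1 1 and 1 without mimic 2. The median over members was -0.002 against NC1 1 to 3, with a mean of 0.05, and both were 0.05 against NC1 4 to 6.

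**Figure D5:**
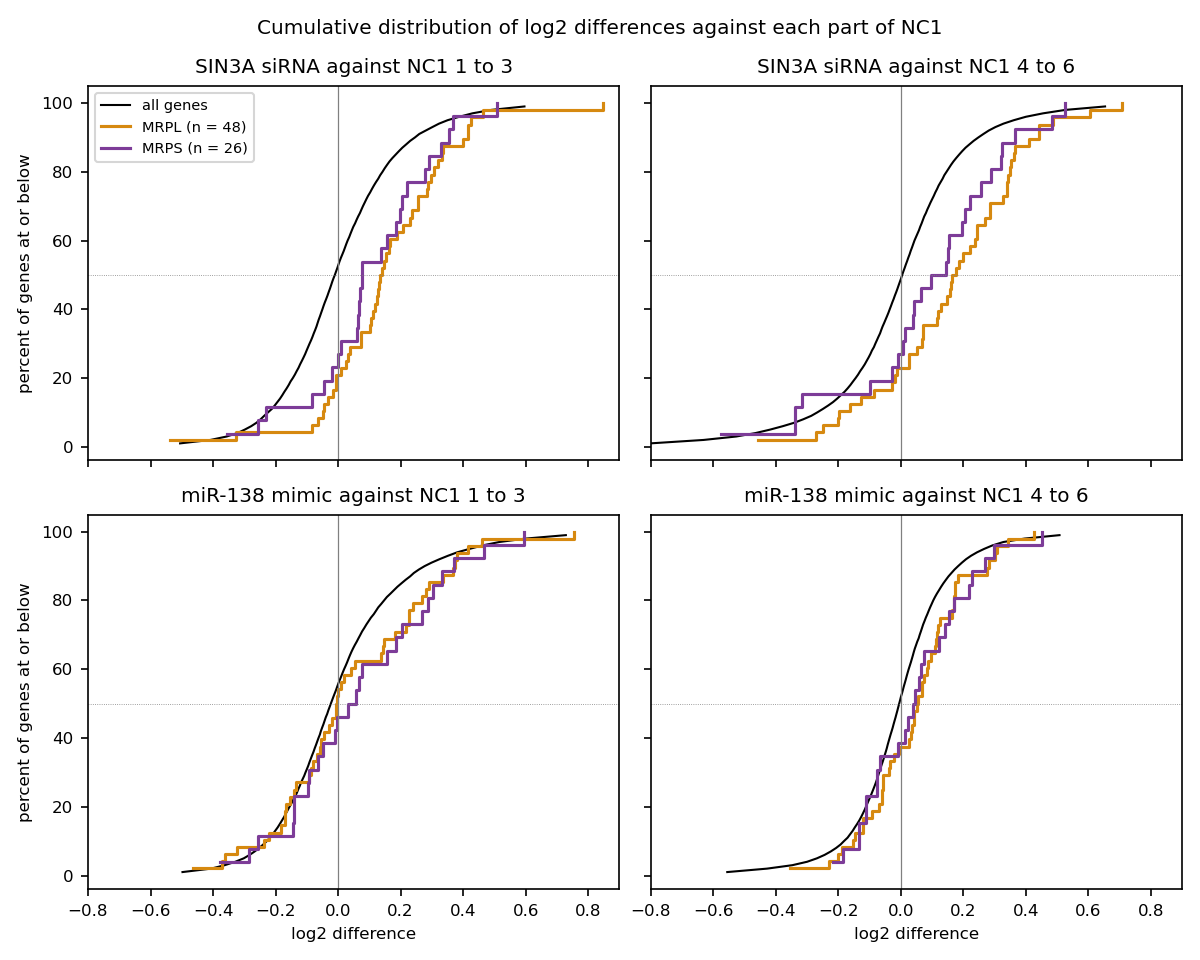
Percent of genes (vertical axis) at or below each log2 difference (horizontal axis) for large subunit members (orange), small subunit members (purple) and all genes (black, percentiles 1 to 99), for each treatment against each part of NC1. With the siRNA both member curves lie right of the black curve over most of their range against either part, with medians of 0.13 and 0.16 over all members. With the mimic the medians were -0.002 and 0.05.

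The comparison of SIN3A siRNA with NC1 1 to 3 and that of the mimic with NC1 4 to 6 share no array. The 2 differences had the same sign for 63.5% of members, 38 higher in both and 9 lower in both. Of all 18417 genes 55.0% had the same sign, 4669 higher in both and 5461 lower in both. The share among the brighter genes was not computed. The shares were 62.5% in the large and 65.4% in the small subunit.

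Between the control parts the share of members called was equal to that of genes at or above the median level. In NC1 4 to 6 against NC1 1 to 3, 7 members were higher and 5 lower (16.2%, against 10% of all genes called, 6.86% higher and 3.18% lower, and 16.2% of genes at or above the median level). Of the large subunit 5 were higher and 5 lower, and of the small subunit 2 were higher. MRPL1 stood at a mean of 5.90 ± 0.15 (SD, n = 3) in NC1 1 to 3 and 6.57 ± 0.26 in NC1 4 to 6, a difference of 0.67 (SE 0.12, adjusted p = 0.00206). MRPL19, of the large subunit, was higher by 0.55, MRPL3, a core protein near the peptidyl transferase centre, by 0.42 and MRPS27, an RNA-binding protein, by 0.40. MRPL11, MRPL47 and MRPS10 also passed, with 0.37, 0.34 and 0.34. MRPS33, at 0.39, did not pass (adjusted p = 0.0599). In the other direction MRPL10, a protein of the stalk base, was at -0.41, MRPL21 at -0.37, MRPL53 at -0.36, MRPL33 at -0.35 and MRPL55 at -0.30. MRPS31P5, at -0.39, did not pass (adjusted p = 0.0705). The count of 12 was 4 without NC1 4 and 5 without NC1 5. The part of these differences in the results against all 6 arrays was not tested beyond the values against each part.

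MRPL36, the smallest protein of the large subunit, has 2 probe sets with its symbol alone, and these disagreed. The gene lies at chr5:1798385-1801434 on GRCh38.p14. The brighter probe set, used by the rule, was at 7.12, 7.46, 7.49, 7.59, 7.55 and 7.73 in NC1 1 to 6 and 7.58, 7.71 and 7.50 with the siRNA. These groups overlapped, and the difference was 0.10 (SE 0.12, adjusted p = 0.754). The further probe set was at 7.28, 7.38, 7.37, 6.88, 7.33 and 6.86 in NC1 and at 7.88, 8.05 and 8.08 with the siRNA, without overlap.

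For that probe set the siRNA difference was 0.82 (SE 0.12, adjusted p = 0.00324), with all 19460 single-symbol probe sets fitted apart, a fit added after seeing the data. In that fit 3.91% of probe sets were called. The rise was 0.66 against NC1 1 to 3 (adjusted p = 0.00336) and 0.98 against NC1 4 to 6 (adjusted p = 3.64e-05), and the call held without each array in turn, with an adjusted p of at most 0.0307. The mimic arrays, at 7.27, 7.28 and 7.25, differed from NC1 by 0.09 and were lower than the siRNA arrays (log2 difference -0.73, adjusted p = 0.0219). Which transcripts each probe set detects was not examined. The 2 probe sets of MRPL20 and the 3 of MRPS18B carried identical values.

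Other genes of mitochondrial translation were counted from lists. The shares of all genes called, to set beside these counts, were 4.01% with the siRNA and 1.04% with the mimic against all 6 NC1 arrays. Against NC1 1 to 3 they were 5.70% and 8.55%, and against NC1 4 to 6 they were 11.4% and 3.49%. At an unadjusted p under 0.05 (limma, all 6 NC1 arrays), 9.04% of all genes were higher and 7.34% lower with the siRNA. With the mimic these shares were 6.71% and 4.62%. The list of mitoribosome proteins with other symbols held DAP3, PTCD3, CHCHD1, GADD45GIP1 and OXA1L. OXA1L is a membrane insertase that binds the ribosome, not a ribosomal protein. CHCHD1, 1 of the 5 (20%), rose with the siRNA, by 0.56 (SE 0.13, adjusted p = 0.0266), and all 5 were above 0. CHCHD1 is a small subunit protein with a twin cysteine motif. It was 0.45 above NC1 1 to 3 (adjusted p = 0.068) and rose by 0.66 against NC1 4 to 6 (adjusted p = 0.00388). DAP3, a GTP-binding protein of the small subunit, rose against NC1 1 to 3, by 0.33 with the siRNA and 0.49 with the mimic, and did not pass against NC1 4 to 6. It differed between the control parts by 0.38.

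Of 29 assembly and ribosomal RNA modification factors none passed with either treatment against all 6 NC1 arrays (limma). At an unadjusted p under 0.05, 1 was higher with the siRNA, and 3 were higher and 1 lower with the mimic. The median log2 difference with the siRNA was 0.05. Against the parts, DDX28 (0.40) and NOA1 (0.37) rose and TFB1M (-0.62) fell with the siRNA against NC1 4 to 6. With the mimic TFB1M (0.83) rose and DDX28 (-0.47) fell against NC1 1 to 3. TFB1M and DDX28 also differed between the control parts, by 1.02 and -0.58.

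Of 15 translation factors none passed with the siRNA against all 6 NC1 arrays (4 higher and 2 lower at an unadjusted p under 0.05). Against NC1 4 to 6, SLIRP (0.63), an RNA-binding protein, rose and MRRF (-0.39), the ribosome recycling factor, fell with the siRNA. MTIF3, an initiation factor and 1 of the 15 (6.67%), fell with the mimic by 0.42 (log2 difference -0.42, SE 0.08, adjusted p = 0.0142). It fell against each part as well, with log2 differences of -0.47 from NC1 1 to 3 (adjusted p = 0.00349) and -0.38 from NC1 4 to 6 (adjusted p = 0.0212). GFM1, an elongation factor, rose with the mimic against NC1 1 to 3, by 0.43.

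Of 21 genes that charge mitochondrial transfer RNAs, 2 passed with the siRNA (9.52%) and none with the mimic against all 6 NC1 arrays (limma, 1 higher and 1 lower at an unadjusted p under 0.05). KARS1, the lysine enzyme of cytosol and mitochondria, rose with the siRNA by 0.45 (adjusted p = 0.00561), and by 0.45 and 0.44 against the parts, where it also passed. IARS2, the mitochondrial isoleucine enzyme, fell by 0.69 (log2 difference -0.69, adjusted p = 0.0342), with siRNA and NC1 arrays overlapping. IARS2 fell against NC1 4 to 6 (log2 difference -0.97) and was at -0.40 against NC1 1 to 3 (adjusted p = 0.072), and it differed between the control parts by 0.56 (adjusted p = 0.00732). RARS2 rose with both treatments against NC1 1 to 3, by 0.58 and 0.35, and differed between the control parts by 0.45. With the mimic FARS2 (-0.48) fell against NC1 1 to 3 and GARS1 (0.37) rose against NC1 4 to 6.

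Of 13 genes for mitochondrial DNA upkeep and transcription, PNPT1, an RNA-degrading and RNA-importing enzyme, rose with the mimic by 0.72 (adjusted p = 0.0185), 7.69% of the list. It rose by 0.88 against NC1 1 to 3 (adjusted p = 0.000575) and by 0.56 against NC1 4 to 6 (adjusted p = 0.0227). None of the 13 passed with the siRNA against all 6 NC1 arrays (limma, 1 higher and 1 lower at an unadjusted p under 0.05). TFB2M, a factor that starts mitochondrial transcription, fell with both treatments against NC1 1 to 3, with log2 differences of -0.37 and -0.48, and differed between the control parts by -0.46.

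Of 12 nuclear regulators of mitochondrial genes none passed with either treatment against all 6 NC1 arrays (limma). At an unadjusted p under 0.05, 2 were higher and 2 lower with the siRNA and 0 with the mimic. With the siRNA, MYC (0.58) and PPRC1 (0.39) rose and SP1 (-0.67) fell against NC1 4 to 6, and GABPB2 (-0.46) fell against NC1 1 to 3. With the mimic, SP1 (-0.53) fell against NC1 4 to 6 and MYC (-0.35) against NC1 1 to 3. MYC and SP1 also differed between the control parts, by -0.44 and 0.55.

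Proteins of the cytosolic ribosome were counted the same way. With the siRNA 3 of 68 rose, RPS27L by 0.51, RPS28 by 0.38 and RPL7A by 0.28, and none fell. These are 4.41%, against 4.01% of all genes called and 6.78% of the brighter genes. RPS27L passed against both parts, and RPS28 and RPL7A against NC1 4 to 6 but not NC1 1 to 3 (adjusted p = 0.132 and 0.142). The log2 difference was above 0 for 55 of the 68 (80.9%), with a median of 0.09, against 78.4% and 0.14 for the mitochondrial members. For 18 of the 68 (26.5%), every siRNA array was above every NC1 array, against 20.3% of the mitochondrial members. At an unadjusted p under 0.05 (limma), 18 of the 68 were higher and 2 lower, against 22 and 3 of the 74 mitochondrial members. With the mimic RPL5 fell by 0.41 (log2 difference -0.41, adjusted p = 0.0112), as it did against each part, and none rose. This is 1.47%, against 1.04% of all genes called and 1.87% of the brighter genes. Against NC1 1 to 3, 3 rose with the siRNA (4.41%, against 5.70% of all genes and 9.45% of the brighter genes). With the mimic 9 rose and 2 fell against that part (16.2%, against 8.55% and 14.2%). Against NC1 4 to 6, 9 rose and 2 fell with the siRNA (16.2%, against 11.4% and 18.9%). With the mimic 1 fell (1.47%, against 3.49% and 5.89%). Between the control parts themselves 9 were higher and 2 lower (16.2%, against 10% and 16.2%). The 16.2% shares were thus at or near those of the brighter genes. The difference between the cytosolic and mitochondrial families was not tested.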

How the data were processed

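The deposited table holds log2 values per probe set and array. RMA and Partek 6.3 are named per the submitters' processing notes, without the step each one did. Values were used as deposited, and no scanner files were used. Array medians of 5.09 to 5.16 and values of 1.43 to 13.2 are in the range of log2 RMA values. Arrays give no read depth, so their number limits the precision (median SE of a siRNA difference 0.10). Of 33297 probe sets, 19460 had a single symbol in the platform annotation, 1754 several and 12083 none.

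The members and lists were chosen with earlier results of these data known. All 18417 genes were fitted in limma 3.58.1 under R 4.3.3, with 3 group means over 12 arrays (9 residual degrees of freedom), or 4 means with NC1 1 to 3 and NC1 4 to 6 apart (8 degrees of freedom). With siRNA and NC1 1 to 3 as 1 set and the mimic and NC1 4 to 6 as the other, a set block has those same 4 means. Adjusted p-values are Benjamini-Hochberg over all genes, called under 0.05. The scripts were tested on simulated data. Errors are limma standard errors unless named SD. Symbols were matched to RefSeq by gene ID.

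The members named are, per subunit and treatment, those called without overlap, filled to 5 by size of difference. Further named are calls between treatments, the 5 largest differences each way between NC1 parts, MRPS18 paralogs, genes with several probe sets, pseudogenes, and up to 4 calls per list. For the lists, genes called against 1 NC1 part were also named, after their values were seen. The rule's brightest and dimmest members are not printed, since levels of different probe sets are not comparable, nor are any of Y-linked genes. MRPL2, MRPL11, MRPL14, MRPL16, MRPL18, MRPL22, MRPL28, MRPL35, MRPL47, MRPL55, MRPS11 and MRPS21 were named after their values were seen. Alternatives covered the replicate block, normalization, centring, probe set choice, a filter on dim genes, the variance model, arrays in the fit and leaving out each array. 3 alternatives (MRPL36 probe sets, subunit of MRPS18A and MRPS30, bright background) were added after seeing the data.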

Additional observations from a re-analysis of the deposited data

Results flagged for a closer look

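MRPS15 in NC1 3 lay apart from the other 5 NC1 arrays, with a gap of 0.644 of the whole NC1 range. Its log2 level there was 7.52, against 7.77 to 7.92 in the others. MRPS18A in NC1 2 lay apart likewise, with a gap of 0.643 of the range, at 7.74 against 7.90 to 8.0. Both exceed Dixon's 95% critical value for 6 arrays. They are 2 of 27 members examined, and chance alone passes that value in about 1 group in 20. MRPS14 differed between the treatments themselves, with a log2 difference of -0.44 for mimic minus siRNA (limma, adjusted p = 0.0326).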

How the results depend on the processing

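The siRNA count of 5 was 12 with genes below the median level left out and 2 with only the siRNA and NC1 arrays fitted. It was 7 (6 higher, 1 lower) after a second quantile normalization, where MRPL41 no longer passed (log2 difference 0.33, limma, adjusted p = 0.081). The mimic count of 1 was 2 with dim genes left out, 0 with each array centred on its median and 0 with only the mimic and NC1 arrays. The count of 1 between treatments was 3 after a second quantile normalization, 2 after centring, 4 without dim genes and 2 with an intensity trend and robust variances. The count of 0 for the mimic against NC1 4 to 6 was 2 without dim genes. The mimic median of 0.05 moved to -0.0022 after a second quantile normalization. Leaving out each array in turn gave 0 to 7 members called for the siRNA, 0 to 1 for the mimic and 0 to 4 between them. It gave 2 to 14 for the siRNA against NC1 1 to 3, 10 to 23 against NC1 4 to 6, 4 to 14 for the mimic against NC1 1 to 3, 0 to 2 against NC1 4 to 6, and 4 to 13 between NC1 parts. The medians lay between 0.125 and 0.152 for the siRNA and between 0.0175 and 0.0662 for the mimic. Of the 21 differences of named members that were recomputed under the alternatives, none changed sign. The other named values were not recomputed. The number of arrays limits all of these counts.

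Replicate numbers 1 to 3 are shared by the groups. Same-numbered arrays did not deviate together (correlations of -0.10 to 0.03 across genes), and not every array correlated best with its own number. These values give no sign of pairing by number, but with 3 arrays per group they cannot exclude it. NC1 4 to 6 were not set against the mimic arrays in this way. NC1 4 to 6 have numbers of their own, so with the replicate number as a block they drop out of the comparison, the differences from NC1 are those from NC1 1 to 3, and 4 residual degrees of freedom remain. With that block the counts were 9 for the mimic (10 against NC1 1 to 3 without it), 7 between treatments and 4 for the siRNA against NC1 1 to 3. Those 4 were 3 higher and 1 lower, and none was among the 5 siRNA calls against all 6 NC1 arrays. The adjusted p of these 5 (limma, with the block) ran from 0.0646 for MRPL32 to 0.138 for MRPS22. The mimic median was -0.0022, as against NC1 1 to 3 without the block.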
